A study of Mus musculus with 59 samples.

Results

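The metallothionein genes Mt1, Mt2 and Mt3, which encode small cysteine-rich proteins that bind zinc and copper, were followed across 59 single mouse cells. They were chosen by symbol, with earlier results of these data known, and they are 3 of the 20689 genes in the deposited table. The study set out to convert astrocytes to functional neurons in vivo by chemical treatment. The labels call all 59 cells chemical-induced neurons, give them an age of 12 weeks and describe drawing the content of each cell into a patch pipette in vivo. They form 1 group, and no animal, strain, genotype, chemical, brain region or marker used to find the cells is given in the sources used here. The 59 cells were therefore treated as 1 sample, with no untreated astrocyte, resident neuron or other control analysed here, and no test between conditions or p-value was computed.

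Metallothioneins hold metal ions in clusters of cysteine thiolates, and so buffer free zinc and copper and can take up reactive oxygen species. Mt1 and Mt2 are made in many tissues and are induced by metals through the transcription factor MTF1, and also by glucocorticoids, cytokines and injury. In the brain they are known mainly from astrocytes. Mt3, also called growth inhibitory factor, is largely a brain gene, is found in zinc-rich neurons as well as in astrocytes, and responds much less to metals. Mt4, the remaining mouse family member, is known from stratified epithelia.

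The 4 genes lie in a row on the plus strand of chromosome 8 in GENCODE release M21 on GRCm38. Mt4 spans bases 94137197 to 94139031, Mt3 bases 94152607 to 94154146, Mt2 bases 94172664 to 94173568 and Mt1 bases 94179082 to 94180327. Between neighbours lie 13575, 18517 and 5513 bases, so Mt1 and Mt2 are the closest pair. Mt2 overlaps the antisense gene Gm45774, which holds 45.5% of the 50-base stretches of the Mt2 transcript. Whether the counting used strand is not given in the sources used here, so reads of Mt2 and Gm45774 cannot be told apart. Mt1 and Mt3 shared no 50-base stretch with any other annotated transcript.

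A window at the RefSeq start of each of the 3 genes is shown because MTF1 acts through short metal response elements near the start site. The windows differ in how many of these letters they hold. Each window is 300 bases of RefSeq sequence on GRCm38.p6, plus strand, with 250 bases before the RefSeq start of the gene and 50 bases from that start onwards. The RefSeq starts are base 94179089 for Mt1, 94172618 for Mt2 and 94152607 for Mt3. Those of Mt1 and Mt2 differ from the GENCODE starts given above, and most of the last 50 bases of the Mt2 window lie before its GENCODE start. Capitals mark matches, on either strand, to the metal response element core TGCACNC or TGCGCNC.
Mt1, chr8:94178839-94179138: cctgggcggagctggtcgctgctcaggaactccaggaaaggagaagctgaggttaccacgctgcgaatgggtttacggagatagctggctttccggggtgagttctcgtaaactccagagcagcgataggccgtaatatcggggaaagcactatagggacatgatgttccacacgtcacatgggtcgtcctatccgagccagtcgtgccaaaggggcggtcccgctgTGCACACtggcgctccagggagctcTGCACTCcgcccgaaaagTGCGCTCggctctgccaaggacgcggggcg
Mt2, chr8:94172368-94172667: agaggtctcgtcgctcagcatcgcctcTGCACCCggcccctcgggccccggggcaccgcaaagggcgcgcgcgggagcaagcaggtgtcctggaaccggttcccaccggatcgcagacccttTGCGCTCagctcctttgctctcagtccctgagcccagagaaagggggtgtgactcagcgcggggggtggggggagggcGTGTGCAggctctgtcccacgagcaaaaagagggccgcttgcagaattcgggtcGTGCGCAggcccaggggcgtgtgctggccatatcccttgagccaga
Mt3, chr8:94152357-94152656: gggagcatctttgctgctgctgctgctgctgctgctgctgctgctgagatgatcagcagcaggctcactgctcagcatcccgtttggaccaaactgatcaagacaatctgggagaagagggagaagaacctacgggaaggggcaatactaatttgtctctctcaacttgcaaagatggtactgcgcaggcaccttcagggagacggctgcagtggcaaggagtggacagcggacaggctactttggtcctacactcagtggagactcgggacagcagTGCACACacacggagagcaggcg
The Mt2 window held 4 matches, the Mt1 window 3 and the Mt3 window 1. Counted from the RefSeq start, the matches began at -223, -128, -50 and 5 in Mt2, at -23, 3 and 21 in Mt1 and at 28 in Mt3. Among 32851 promoter windows of the same length, 25.7% held at least 1 match, 1.97% at least 3 and 0.517% at least 4. The AP-1 letters TGANTCA, bound by FOS and JUN dimers, matched once, at -79 from the RefSeq start of Mt2, and 7.81% of all windows held them. The EGR letters GCGNGGGCG matched in none of the 3 windows, against 5.55% of all windows. These matches are descriptions of letters in a window and not measured binding sites. Each window rests on 1 RefSeq start, and letters outside it were not searched. The counts therefore do not compare the whole promoters of the 3 genes.

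The libraries differed widely in depth. The deposited values are FPKM, fragment counts scaled to exon length and to the depth of the cell, and the spacing of low values within a cell gave an estimated median of 912996 fragments per cell (29043 to 2950403). A median of 3984 genes per cell reached an FPKM of 1 (475 to 10310), the threshold for calling a gene detected, and ERCC spike-ins held 0.0940 to 37.6% of the summed FPKM. The label of neurons was set against marker lists by their mean log2(FPKM + 1) in each cell. Among 4 lists, the highest mean was neuronal in 21 cells, oligodendrocyte in 28, microglia in 8 and astrocyte in 2, so the label and the leading genes differ in most cells. Detection in 50% of cells or more was reached by all 14 neuronal, 9 of 10 oligodendrocyte, 7 of 12 microglia and 8 of 19 astrocyte genes. The list means ran from 0 to 7.00 for neuronal, 0.71 to 10.7 for oligodendrocyte, 0 to 9.83 for microglia and 0.58 to 7.57 for astrocyte genes. The median of the list means was 0 for endothelial and mural genes and for erythroid genes. Below, cells are called by the list with the highest mean only as a description.

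Mt1 was the most abundant member and among the most abundant genes of these cells. Its FPKM was 0 at the lowest, 641 at the median and 5224 at the highest, with quartiles of 241 and 1292. It was detected in 57 of 59 cells (96.6%, exact Clopper-Pearson 95% interval 88.3 to 99.6%, which covers counting error over cells only). Its median ranked 24th of the 20689 genes, and Mt1 was among the 100 highest genes of the cell in 39 cells. It was the highest of the 3 members in 47 cells. Only cells 39 and 62 listed Mt1 at 0, where 3 fragments would have given 11.6 and 9.32 FPKM, far below the median of the other cells. Both had the neuronal list highest, and both held Mt3, at 439 FPKM in cell 39 and 998 FPKM in cell 62.

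Mt3 came next by median. Its FPKM was 0 at the lowest, 224 at the median and 3830 at the highest, with quartiles of 35.3 and 464. It was detected in 50 cells (84.7%, interval 73.0 to 92.8%), its median ranked 79th of all genes, and it was among the 100 highest genes of the cell in 19 cells. It was the highest member in 9 cells. The highest values, 3830 FPKM in cell 44 and 2680 FPKM in cell 42, stood well above the next, 1093 FPKM in cell 3, and all 3 of these cells had the neuronal list highest. Cell 44 had 152391 estimated fragments and ERCC spike-ins at 24.8% of its summed FPKM, and its Mt3 value rested on 314 fragments.

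Mt2 was the lowest member. Its FPKM was 0 at the lowest, 49.4 at the median and 3097 at the highest, with quartiles of 8.13 and 279. It was detected in 45 cells (76.3%, interval 63.4 to 86.4%), and its median ranked 431st of all genes. It was among the 100 highest genes of the cell in 9 cells and the highest member in 3. In the 14 cells where Mt2 was listed at 0, 3 fragments would have given between 2.13 FPKM (cell 60) and 43.0 FPKM (cell 5), so the zeros of the shallower cells allow a level close to the median. Mt4 was detected in 1 cell, cell 10, at 3.08 FPKM.

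**Figure D1:**
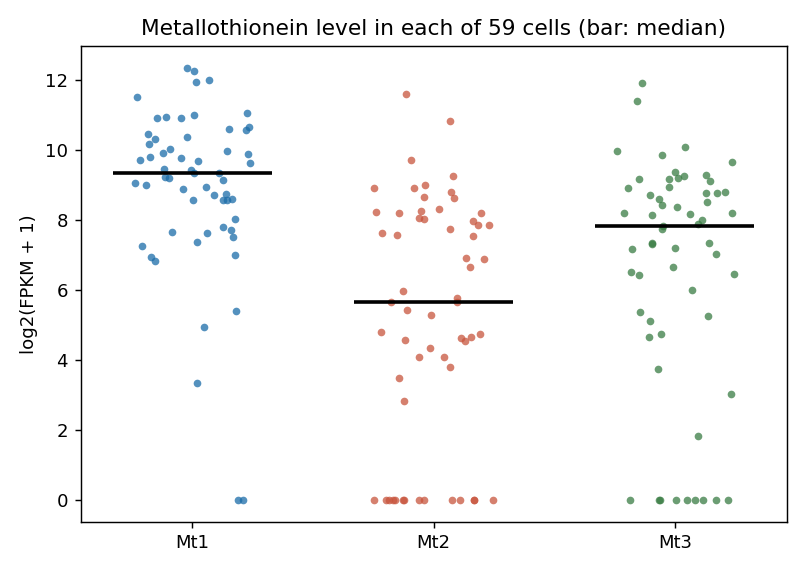
Level of Mt1, Mt2 and Mt3 in each of the 59 cells, as log2(FPKM + 1) on the vertical axis, with 1 point per cell and a bar at the median. Mt1 is at 0 in 2 cells, Mt2 in 14 and Mt3 in 9, and the medians lie in the order Mt1 (641 FPKM), Mt3 (224 FPKM) and Mt2 (49.4 FPKM).

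The values rest on unequal numbers of fragments. The spacing of the deposited values implied exon lengths of 540 bases for Mt1, 556 for Mt2 and 538 for Mt3. With these lengths 56 of 57, 45 of 45 and 49 of 50 values above 0 came to a whole number of fragments within 0.1. The exceptions were both in cell 17. Over all 59 cells, with zeros included, the median was 290 fragments for Mt1, 26 for Mt2 and 98 for Mt3. In the cells above 0 the fragments ran from 1 to 4275 for Mt1, 1 to 604 for Mt2 and 3 to 596 for Mt3. At least 10 fragments were found in 56 cells for Mt1, 35 for Mt2 and 45 for Mt3, so low Mt2 values are the least precise.

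The spread of Mt1 between cells lay below the running median it was set against, and the spreads of Mt2 and Mt3 lay above theirs. The SD of log2(FPKM + 1) over cells was 2.42 for Mt1, against a running median of 2.78 among genes of similar mean, and its excess ranked 7187th of 8042 genes. The SD was 3.47 for Mt2, against 2.93, which ranked 296th, and 3.36 for Mt3, against 2.83, which ranked 319th. Few genes have a higher mean than Mt1, so its running median came mostly from genes of lower mean. The part of this in the low spread of Mt1 was not tested. The 3 members together held a median of 0.218% of the summed gene FPKM of a cell, from 0.00727% in cell 27 to 2.39% in cell 42.

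Every cell expressed at least 1 metallothionein at an FPKM of 1. All 3 were detected in 38 cells (64.4%, interval 50.9 to 76.5%), Mt1 with Mt3 but not Mt2 in 10 and Mt1 with Mt2 but not Mt3 in 6. Mt1 alone was found in 3 cells, Mt3 alone in 1 (cell 62), Mt2 with Mt3 but not Mt1 in 1 (cell 39) and Mt2 alone in 0. Mt1 was above Mt2 in 53 cells and above Mt3 in 50, and Mt3 was above Mt2 in 40.

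Mt1 and Mt2 kept no fixed ratio. In the 44 cells with both, the Mt1 level was a median of 4.83 times the Mt2 level (quartiles 2.96 and 9.95), from 0.059 in cell 46 to 174 in cell 44. The ratio was below 1 in 4 cells. Cell 46 had 29.9 FPKM of Mt1 and 507 FPKM of Mt2, so that Mt2 made up 94.6% of the fragments of both genes (13 and 227 fragments, interval 90.9 to 97.1%). Cell 2 had 2137 FPKM of Mt1 and 3097 FPKM of Mt2, with Mt2 at 59.9% of the fragments (interval 52.0 to 67.4%). In cell 11 the levels were 220 and 229 FPKM, and in cell 27 the ratio rested on 1 and 3 fragments. At the other end, cell 41 had 3913 FPKM of Mt1 from 302 fragments with Mt2 at 0, for which the interval of the Mt2 share reached 1.21%. Cell 16, among the deepest libraries, had 2003 fragments of Mt1 and 25 of Mt2, a share of 1.23% (interval 0.799 to 1.81%). The intervals of cells 2, 16, 41 and 46 do not cover the median share of 14.2%, and the overlap of Mt2 with Gm45774 applies to each of them. These intervals take fragments as independent, which they are not without molecular identifiers, so they are too narrow. The cells were also named after their shares were seen.

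Over the 59 cells Mt2 was correlated with both other members. Spearman's rho was 0.45 between Mt1 and Mt2, 0.42 between Mt2 and Mt3 and 0.18 between Mt1 and Mt3. Each correlation here and below is a description over cells that share 1 table and 1 depth scale each, and carries no p. Among the 8041 other genes detected in at least 12 cells, Mt2 had the 7th highest correlation with Mt1. Mt3 had the 52nd highest with Mt2, and Mt3 was 568th for Mt1. Seen from the other member of each pair, Mt1 was 34th for Mt2, Mt2 was 125th for Mt3 and Mt1 was 1942nd for Mt3. With the number of genes detected regressed out of the ranks, the 3 values were 0.47, 0.41 and 0.18. The value between Mt1 and Mt3 depended on the processing. Pearson's r of their log2 values was -0.0024, and rho was 0.32 in the 46 cells with at least 2000 genes and 0.57 when each cell was scaled to its ERCC spike-in sum. That scaling raised the correlations of most genes, and no relation of Mt1 and Mt3 is read from these values.

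**Figure D2:**
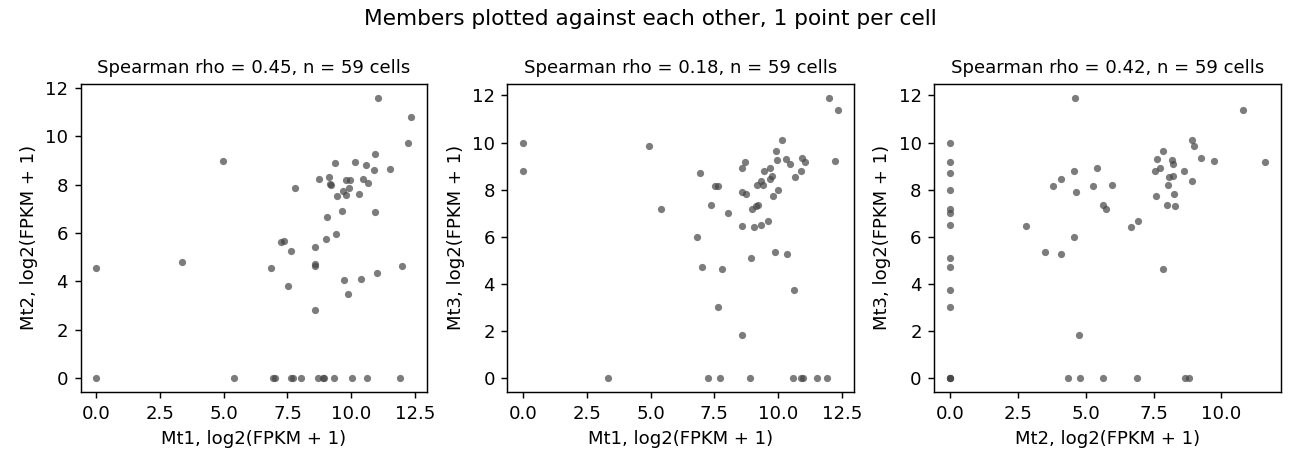
Levels of the 3 pairs of members plotted against each other as log2(FPKM + 1), with 1 point per cell and Spearman's rho above each panel. The values are 0.45 for Mt1 and Mt2, 0.18 for Mt1 and Mt3 and 0.42 for Mt2 and Mt3, with cells at 0 lying along the axes.

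The levels were weakly related to the technical measures. The rank correlation with the estimated fragments was -0.23 for Mt1, 0.04 for Mt2 and -0.08 for Mt3. The rank correlation with the number of genes detected was -0.01, 0.26 and 0.12, and with the ERCC share 0.11, -0.20 and -0.01. Of these values, that of Mt2 with genes detected was the highest, and its 14 cells at 0 had a median of 2188 genes, against 4561 in the 45 cells with Mt2. The part of genes detected in the Mt2 zeros was not tested.

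The cell with the highest Gja1 and the cell with the highest Slc1a3 held all 3 metallothioneins. Each member was also detected in most cells with neither gene. Gja1 encodes connexin 43, the main astrocyte gap junction protein, and Slc1a3 the astrocyte glutamate transporter GLAST. In cell 47, which had the highest Gja1 level (550 FPKM, with Slc1a3 at 174 FPKM), Mt1 was 956, Mt2 230 and Mt3 799 FPKM. In cell 22, which had the highest Slc1a3 level (468 FPKM, with Gja1 at 49.0 FPKM), Mt1 was 1974, Mt2 613 and Mt3 656 FPKM. These are the 2 cells with the astrocyte list highest, and each member lay above its median over all cells in both. Other cells differed. Cell 46 had Slc1a3 at 181 FPKM and Gja1 at 0, with Mt1 at 29.9, Mt2 at 507 and Mt3 at 928 FPKM. Cell 54 had Gja1 at 36.3 and Slc1a3 at 23.2 FPKM, with Mt1 at 417, Mt2 at 0 and Mt3 at 570 FPKM.

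Detection of the 2 astrocyte genes and of metallothioneins overlapped in part. Among the 20 cells with Gja1, Mt1 was detected in 20, Mt2 in 18 and Mt3 in 20, and among the 39 cells without it Mt1 was detected in 37, Mt2 in 27 and Mt3 in 30. Among the 35 cells with Slc1a3 the counts were 35, 29 and 32, and among the 24 without it 22, 16 and 18. In the 22 cells with neither gene, Mt1 was still detected in 20, Mt2 in 14 and Mt3 in 16. Cells with Gja1 had a median of 5125 genes detected and those without it 3252, and the medians were 4825 and 2138 genes for Slc1a3. The part of that difference in these counts was not tested.

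By level, Gja1 and Slc1a3 followed the metallothioneins weakly. Spearman's rho with Gja1 was 0.23 for Mt1, 0.29 for Mt2 and 0.38 for Mt3, and rho with Slc1a3 was 0.18, 0.25 and 0.20. With 39 of 59 values of Gja1 below detection these are sparse relations, and no finding is read from them. In the 39 cells with at least 500000 fragments, Mt1 had 0.47 with Gja1 and 0.33 with Slc1a3, and Mt2 had 0.51 with Slc1a3. The remaining pairs changed by no more than 0.134 there. The 95th percentile of rho over all genes rose too, from 0.20 to 0.32 with Mt1 and from 0.32 to 0.35 with Mt2. Cell 41 shows how far the genes can part, with Slc1a3 at 97.5 FPKM, Mt1 at 3913 FPKM and Mt2 and Mt3 at 0.

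The wider astrocyte list had its highest correlation with Mt2. The rank correlation with the mean of 19 astrocyte genes was 0.62 for Mt2, 0.50 for Mt3 and 0.33 for Mt1. With Apoe, Glul, S100b and Clu left out of the list, since other brain cells make them too, the values were 0.57, 0.54 and 0.26. In the 39 cells with at least 500000 fragments they were 0.69, 0.54 and 0.53. Under ERCC scaling they were 0.75, 0.71 and 0.70, so the distance between Mt3 and Mt1 was small under both. The distance between Mt2 and Mt3 was small with the shortened list and under ERCC scaling. With the number of genes detected regressed out, the values of Mt2 and Mt3 were 0.59 and 0.52. Of the 18 genes of the list detected in at least 12 cells, 8 had a rho of at least 0.4 with Mt2, 6 with Mt3 and 0 with Mt1. Over all 8041 genes that threshold was reached by 1.11% for Mt2, 2.2% for Mt3 and 0.174% for Mt1. The median rho of the list was 0.39 with Mt2, 0.35 with Mt3 and 0.18 with Mt1, and that of all genes was 0.12, 0.07 and -0.0053. For Mt2 the closest were Gjb6 (connexin 30, 0.54), Atp1b2 (a glial sodium pump subunit, 0.52), Sox9 (a glial transcription factor, 0.47) and Aldoc (a glycolytic enzyme of astrocytes, 0.46). Ntsr2 and Slc4a4 (0.46 each), the water channel gene Aqp4 (0.44) and Clu (0.41) were the other 4. For Mt3 they were Aldoc (0.56), Clu (0.49), Sox9 (0.47), Atp1b2 (0.45), Ntsr2 (0.45) and the glutamate transporter gene Slc1a2 (0.42). The mean of the astrocyte list itself had a rho of 0.40 with the neuronal list and 0.40 with the microglia list over the same cells, and the part of these in the result was not tested.

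Mt1 followed the immediate early genes, which are induced within minutes by calcium influx, growth factors or tissue handling, while the value of Mt3 was negative or near 0 on the FPKM scale. The rank correlation with the mean of the list of 24 genes was 0.44 for Mt1, 0.29 for Mt2 and -0.22 for Mt3, which became 0.37 for Mt3 when each cell was scaled to its ERCC sum. For Mt3 it was -0.077 in cells with at least 2000 genes and -0.052 in cells with at least 500000 fragments. Of the 22 members detected in at least 12 cells, 6 reached 0.4 with Mt1, beside 0.174% of all genes. They were Egr1 (0.54), the AP-1 subunit gene Jund (0.46), the stress-induced Atf3 (0.44), Klf4 (0.42), the antiproliferative Btg2 (0.41) and the mRNA decay factor gene Zfp36 (0.41). The median over the 22 was 0.27 with Mt1, against -0.0053 over all genes. With Mt2, 2 members reached 0.4 (Jund and Ier3, 0.42 each), beside 1.11% of all genes. The median with Mt2 was 0.16, near the 0.12 of all genes. With Mt3, 0 members reached 0.4, beside 2.2% of all genes. Fos (-0.42) and Jun (-0.40) were at or below -0.4 with Mt3, a level passed by 1.01% of all genes. Under ERCC scaling both turned positive, at 0.15. The median with Mt3 was -0.17, against 0.07 over all genes.

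Single cells went both with and against the relation of Mt1 and Egr1. Egr1, a zinc finger transcription factor, was detected in 55 cells and had a median of 137 FPKM. Of the 8 cells with the most Mt1 (1974 FPKM or more), 5 had Egr1 far above that median, with 1951 FPKM in cell 41, 1890 FPKM in cell 1, 1667 FPKM in cell 40, 1103 FPKM in cell 22 and 936 FPKM in cell 34. The other 3 lay below it. A median splits all cells evenly, so 5 of 8 above it is near the share of all cells. Cells 42, 44 and 2 had Mt1 at 5224, 4107 and 2137 FPKM but Egr1 at 100, 0 and 73.0 FPKM. The highest Egr1 of all, 2462 FPKM in cell 38, went with 491 FPKM of Mt1, below the Mt1 median. In cells 39 and 62, where Mt1 was at 0, Egr1 was 4.19 and 0 FPKM. Cells 1, 34, 38, 40 and 41 had the oligodendrocyte list highest and cells 2, 39, 42, 44 and 62 the neuronal list. Over all cells the oligodendrocyte list mean had a rho of 0.63 with the immediate early list mean and 0.27 with Mt1, and its part in the relation of Mt1 to immediate early genes was not tested.

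**Figure D3:**
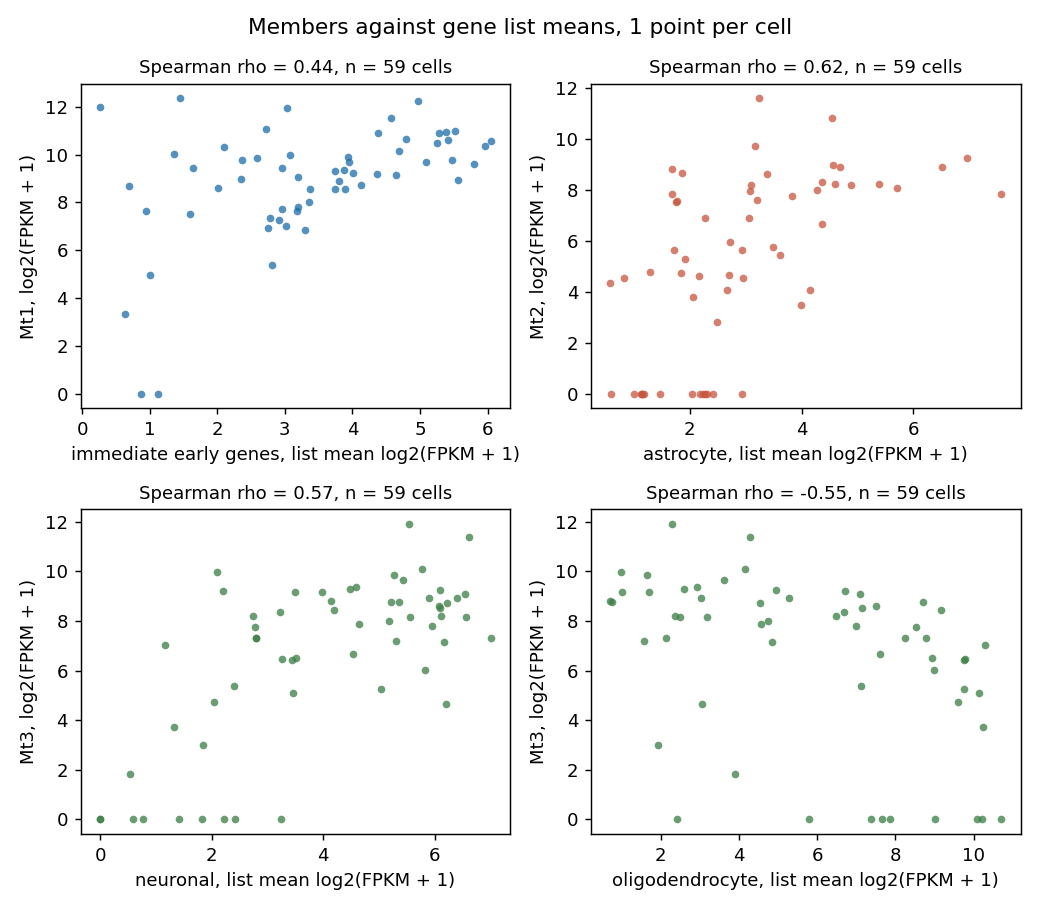
Level of a member, as log2(FPKM + 1), against the mean log2(FPKM + 1) of a gene list, with 1 point per cell, for Mt1 and immediate early genes, Mt2 and astrocyte genes, and Mt3 with neuronal and with oligodendrocyte genes. Spearman's rho is 0.44, 0.62, 0.57 and -0.55 in that order, and the 9 cells with Mt3 at 0 lie at neuronal list means of 3.24 or less.

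Mt3 went with neuronal genes and against oligodendrocyte genes. Spearman's rho with the mean of 14 neuronal genes was 0.57 for Mt3, 0.29 for Mt2 and -0.03 for Mt1. Of these 14 genes, 11 had a rho of at least 0.4 with Mt3, beside 2.2% of all genes, and 0 with Mt1 or Mt2. The highest were Map2 (a dendritic microtubule protein, 0.61), Rbfox3 (which encodes NeuN, 0.56), Snap25 (a vesicle fusion protein, 0.56), Uchl1 (a neuronal deubiquitinase, 0.54) and Syt1 (the synaptic calcium sensor, 0.53). The rank correlation with the mean of 10 oligodendrocyte genes was -0.55 for Mt3, -0.08 for Mt2 and 0.27 for Mt1, and under ERCC scaling the value for Mt3 was 0.05. Of the 10 genes 8 were at or below -0.4 with Mt3, beside 1.01% of all genes. Among the lowest were Ermn (a myelin cytoskeletal protein, -0.63), Cldn11 (the myelin tight junction protein, -0.55) and Mal (-0.49), while 3 of the 8, Mobp, Mog and Cnp, were at or above 0 under ERCC scaling. The neuronal and oligodendrocyte list means themselves had a rho of -0.33. Scaling to ERCC moved the median rho of all genes with Mt3 to 0.39, against 0.07 unscaled.

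The cells with Mt3 listed at 0 shared the list with the highest mean. In each of these 9 cells it was the oligodendrocyte list, and the neuronal list mean ran from 0 to 3.24, below its median of 4.20 over all cells. They had 475 to 5014 genes detected (median 1554) and 61259 to 2693731 fragments, against a median of 4366 genes in the 50 cells with Mt3. Cell 40 was the deepest of them, and 3 fragments there would have given 2.07 FPKM of Mt3, beside 2939 FPKM of Mt1 and 403 FPKM of Mt2. Cell 53 had 1318871 fragments and a corresponding limit of 4.23 FPKM, beside 208 FPKM of Mt1. In the shallowest, cell 19, the limit was 91.0 FPKM, so its 0 says little. The part of the low gene numbers in the Mt3 zeros was not tested.

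Grouped by the list with the highest mean, the order of the members differed. In the 21 cells with neuronal genes highest, Mt3 had the highest median, at 480 FPKM (24.1 to 3830), with Mt1 at 417 FPKM (0 to 5224) and Mt2 at 49.4 FPKM (0 to 3097). Every one of these 21 cells had Mt3, as did all 8 with microglia and all 2 with astrocyte genes highest. Among the 28 cells with oligodendrocyte genes highest it was detected in 19. In the 28 cells with oligodendrocyte genes highest, Mt1 had a median of 759 FPKM (9.14 to 4861), Mt3 of 52.0 FPKM (0 to 588) and Mt2 of 24.6 FPKM (0 to 837). In the 8 cells with microglia genes highest the medians were 590 FPKM for Mt1 (198 to 885), 186 FPKM for Mt3 (2.53 to 332) and 155 FPKM for Mt2 (0 to 482). The ranges of the neuronal and oligodendrocyte cells overlapped for every member. The lists were chosen with results of these cells known and the cells are not replicates, so these differences are given without a test.

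Genes of metal handling lay below the threshold of 0.4 with every member. Of 21 genes of zinc sensing and transport, 11 were detected in at least 12 cells, and 0 reached 0.4 with any of the 3 members, beside 0.174% of all genes for Mt1, 1.11% for Mt2 and 2.2% for Mt3. At these shares a count of 0 among so few genes sets the list apart in neither direction. The medians were -0.04 with Mt1, 0.14 with Mt2 and -0.0037 with Mt3, close to those of all genes. Mtf1, the gene of the metal sensor itself, was detected in 13 cells and had a rho of -0.04, 0.14 and -0.02 with Mt1, Mt2 and Mt3. Slc30a1, a zinc exporter that MTF1 is known to induce together with metallothioneins, was detected in 7 cells, too few to rank. The mean of the zinc list had a rho of -0.02 with Mt1, 0.21 with Mt2 and -0.0088 with Mt3. Of 11 copper genes, 8 were ranked and 0 reached 0.4, with Atox1 (a copper chaperone) detected in 40 cells and Prnp (the prion protein, which binds copper) in 57. The mean of the copper list had a rho of 0.12 with Mt1, 0.31 with Mt2 and -0.0041 with Mt3. All 11 zinc and all 8 copper genes ranked had a positive rho with Mt2, whose median over all genes was 0.12. With the number of genes detected regressed out, rho with Mt2 was -0.02 for the zinc and 0.19 for the copper list mean.

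Other inducers of metallothioneins were followed through lists of their targets. Of 12 ranked glucocorticoid-responsive genes, 0 reached 0.4 with any member. Over all 8041 genes that threshold was reached by 0.174% for Mt1, 1.11% for Mt2 and 2.2% for Mt3. At these shares a count of 0 among so few genes sets a list apart in neither direction. The kinase gene Sgk1 stood at -0.46 with Mt3, beside 1.01% of all genes at or below -0.4, and was 0.15 under ERCC scaling. Of 8 ranked genes of STAT3 signalling and acute response, the intermediate filament gene Vim reached 0.40 with Mt2, and Socs3, a feedback inhibitor of cytokine signalling, came to 0.39 with Mt1. The mean of this list had a rho of 0.39 with Mt1, 0.33 with Mt2 and -0.24 with Mt3. Among 10 ranked NRF2 targets and 8 ranked heat shock genes 0 reached 0.4 with any member, and the list means had a rho of 0.22 or less. With the number of genes detected regressed out, the NRF2 mean had 0.34 with Mt1, -0.0077 with Mt2 and -0.14 with Mt3. The heat shock mean then had 0.27, 0.05 and -0.12.

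**Figure D4:**
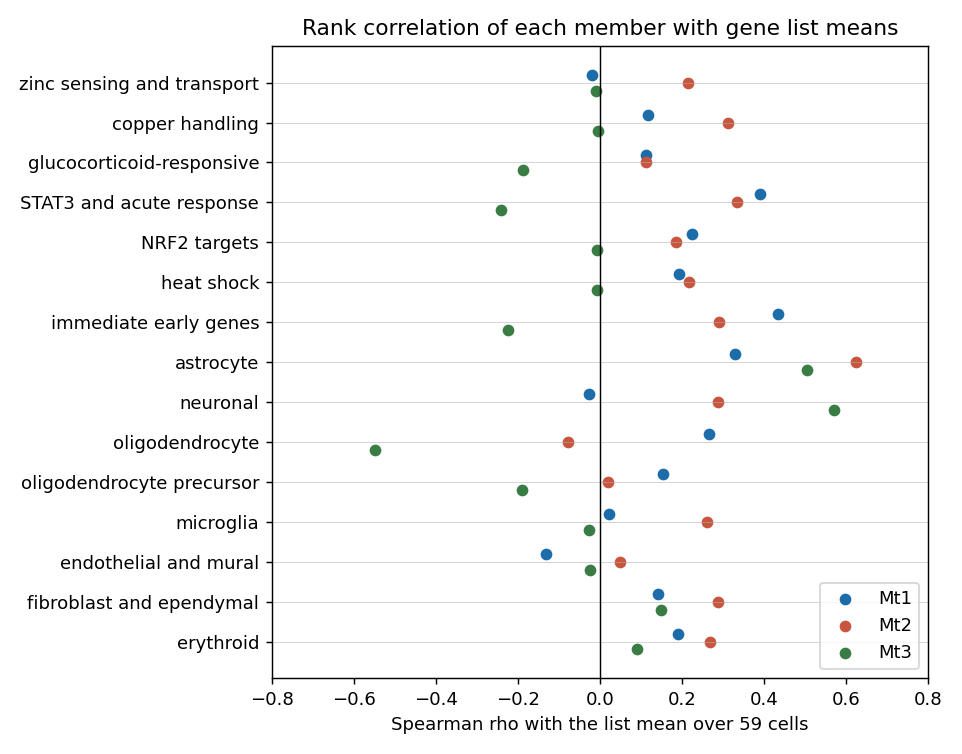
Spearman's rho over 59 cells between each member and the mean log2(FPKM + 1) of 15 gene lists, with 1 row per list and 1 point per member. Mt1 lies farthest right for immediate early genes (0.44), Mt2 for astrocyte genes (0.62) and Mt3 for neuronal genes (0.57), and Mt3 lies at -0.55 for oligodendrocyte genes.

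Without regard to lists, the genes most like each member differed. For Mt1 the highest rho belonged to Klf13 (a Krueppel-like transcription factor, 0.58), followed by Egr1, Zbtb20 (a zinc finger repressor) and Dbi (an acyl-CoA binding protein), each at 0.54. Qk (the glial RNA-binding protein Quaking, 0.50), Jund (0.46), Mt2 (0.45), Atf3 (0.44), Rpl34 (0.44) and Ddx3x (0.43) completed the 10. The lowest was Hibadh at -0.40, the only gene at or below -0.4 with Mt1 (0.0124% of those ranked), which was 0.19 under ERCC scaling. With Mt1, 14 genes reached 0.4, and in the 39 cells with at least 500000 fragments the number was 130. Over the same 8041 genes the shares were 0.174% in 59 cells and 1.79% in those 39. The 95th percentile of rho was 0.20 and 0.32, so the upper end of all genes moved and the counts are not comparable.

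For Mt2 the 10 were led by Zfp36l1 (an mRNA decay factor, 0.55), S1pr1 (a sphingosine 1-phosphate receptor of astrocytes and vessels, 0.54), Gjb6 (0.54) and Pfkfb3 (a regulator of glycolysis, 0.54). Atp1b2 and Snhg12 (0.52 each), Ppap2b and Fam107a (0.50 each), the peroxiredoxin gene Prdx6 and Tprkb (0.49 each) followed. Ppap2b, named Plpp3 in newer annotation, is an astrocyte lipid phosphatase gene that the astrocyte list holds only under its newer name and so did not count. Gjb6 and Atp1b2 were the members of the astrocyte list among the 10. With Mt2, 89 genes reached 0.4, and 0 lay at or below -0.4 (0.0%).

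For Mt3 the correlations were higher. The 10 were Cox6b1 (a cytochrome c oxidase subunit, 0.67), Ywhag (14-3-3 gamma, 0.66), Chchd10 (a mitochondrial protein, 0.62), Map2 and Cdr1 (0.61 each), Uqcrh (a complex III subunit, 0.60), Ldhb (lactate dehydrogenase B, 0.60) and Usmg5 (an ATP synthase subunit, 0.60). The complexin genes Cplx1 and Cplx2, regulators of vesicle fusion, came to 0.58 each. Among the genes at the other end were Trf (transferrin, -0.66), Ermn (-0.63), Stmn4 (-0.61), Sept4 (-0.60) and Fth1 (ferritin heavy chain, -0.59). Aspa and Cryab (-0.58 each) and Pllp and Apod (-0.57 each) followed. Under ERCC scaling Stmn4 (0.02), Sept4 (0.15), Fth1 (0.29) and Cryab (0.01) had positive values with Mt3. With Mt3, 177 genes reached 0.4 and 81 lay at or below -0.4.

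**Figure D5:**
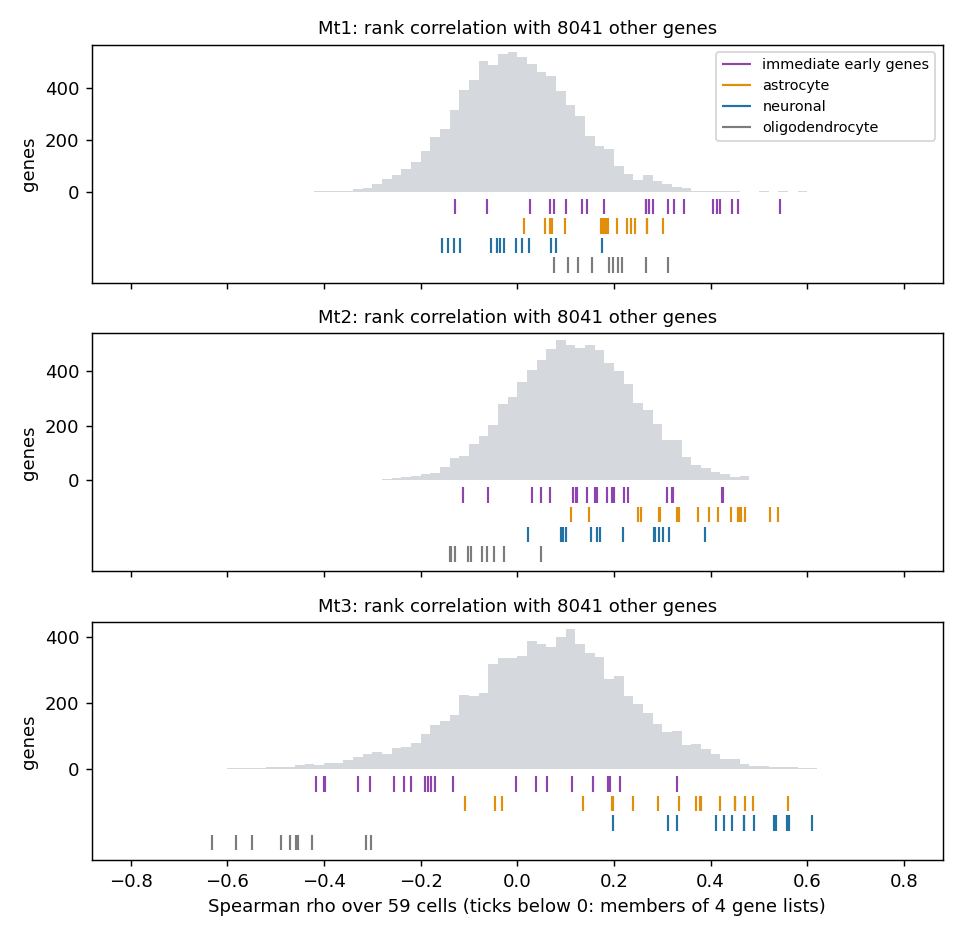
Number of genes by Spearman's rho with Mt1, Mt2 and Mt3 over 59 cells, for 8041 other genes each, with ticks below the histograms at the genes of 4 lists. For Mt3 the neuronal ticks lie to the right (median 0.47) and the oligodendrocyte ticks to the left (median -0.46), for Mt2 the astrocyte ticks lie to the right (median 0.39), and for Mt1 the immediate early ticks (median 0.27).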

How the data were processed

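Single-cell RNA-seq of 59 cells was analysed from 1 table. The authors deposited FPKM per gene and cell, and the submitters' processing notes name STAR 2.5.3a, featureCounts 1.5.3 and the build GRCm38. For the annotation release, strand setting and multi-mapped reads, details were not given in the sources used here. The 51 ERCC spike-ins among the 20740 features were kept out of gene counts. Fragments per cell were estimated from the spacing of low FPKM values, with exon lengths of GENCODE M21 for 19366 genes (93.6%). A median of 73.3% of low values were whole within 0.02 fragments, so values stayed as FPKM and no count model was run.

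A gene was detected at an FPKM of 1, and log2 values are log2(FPKM + 1), which understates differences of low genes. Spearman correlations were run against the 8041 other genes detected in at least 12 cells, with 0.4 as a descriptive threshold. Limits for zeros are those of 3 fragments. Intervals and limits cover counting error only, and fragments without molecular identifiers are not independent molecules. The members, the 15 gene lists and the threshold were chosen with earlier results of these data known. Named genes are the members, Gja1, Slc1a3, the 10 genes most like each member and at most 8 per list with the highest or lowest correlation or detection; the genes with the lowest correlations with Mt1 and Mt3 and single cells were named after their values were seen. A gene that this rule takes is not reported here. Alternatives changed the scaling, the threshold, the pseudocount, the cells kept and the correlation. Steps were tested on simulated data. Python 3.11.15, pandas 2.3.3, numpy 2.4.6 and scipy 1.17.1 were used.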

Additional observations from a re-analysis of the deposited data

How the results depend on the processing

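The alternatives gave 255 values for 30 results, and 211 of these lay within the yardstick, 43 moved and 1 changed sign. A sign change was counted apart only where the main rho was at least 0.4 in size. Smaller correlations changed sign too. Mt1 kept its sign with Mt3 in 8 of 10 alternatives and with neuronal genes in 6 of 10. Mt2 with oligodendrocyte genes and Mt3 with immediate early genes each kept it in 9 of 10. The yardstick was 0.134 for a correlation (1 over the square root of the number of cells minus 3), the 95% interval of a share and a factor of 1.5 for a level or a count. This yardstick is wide, since the alternatives share cells. The cause of each move was not tested unless given. No paired analysis was possible because the labels give 1 group. The alternatives of 10 fragments, of 500000 fragments per cell, of 2 cells left out, of the shortened astrocyte list and of the neuronal and oligodendrocyte list means were chosen after seeing the data.

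At least 10 fragments were found for Mt2 in 59.3% of cells. Mt3 was detected in 93.5% of the 46 cells with at least 2000 genes, where the Mt2 median was 80.5 FPKM, and in 94.9% of the 39 cells with at least 500000 fragments. With each cell rescaled to a gene sum of 1000000 the medians of Mt1, Mt2 and Mt3 were 1328, 119 and 499.7, and without mitochondrial genes and ribosomal RNA in that sum 2511, 207.5 and 833, moves that follow from the scaling itself.

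Scaling each cell to its ERCC sum raised most correlations and moved the median rho of all genes to 0.42 with Mt1, 0.37 with Mt2 and 0.39 with Mt3, so that 56.7%, 38.6% and 46.7% of genes reached 0.4. Under this scaling both genes of a pair are divided by the same spike-in sum. Mt1 then had 0.75 with Mt2, 0.57 with Mt3, 0.44 with Slc1a3, and 0.70, 0.79, 0.44 and 0.57 with the astrocyte, immediate early, neuronal and oligodendrocyte list means. Mt2 had 0.63 with Mt3, 0.44 with Slc1a3, and 0.56, 0.53 and 0.23 with the immediate early, neuronal and oligodendrocyte means. Mt3 had 0.42 with Slc1a3, and 0.71, 0.37, 0.77 and 0.049 with the astrocyte, immediate early, neuronal and oligodendrocyte means. The last 1 changed sign from -0.55, and the immediate early value from -0.22. Mt1 with neuronal genes and Mt2 with oligodendrocyte genes also changed sign, from -0.03 and -0.08. Among 960 values of 96 single genes 137 moved and 11 changed sign from a rho of at least 0.4 in size, each under this scaling. They were Hibadh (0.19) with Mt1, and Stmn4 (0.024), Sept4 (0.15), Fth1 (0.29), Cryab (0.014), Sgk1 (0.15), Fos (0.15), Jun (0.15), Mobp (0.28), Mog (6.0e-05) and Cnp (0.082) with Mt3.

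With at least 2000 genes per cell, rho was 0.32 for Mt1 and Mt3 and -0.077 for Mt3 and immediate early genes. With at least 500000 fragments, Mt1 had 0.47 with Gja1, 0.33 with Slc1a3, 0.53 with astrocyte and 0.57 with immediate early genes, Mt2 had 0.51 with Slc1a3, and Mt3 had -0.052 with immediate early and 0.40 with neuronal genes. Pearson's r of log2(FPKM + 0.1) was 0.31 for Mt1 and Mt2, -0.044 for Mt1 and Mt3, 0.26 for Mt2 and Mt3 and -0.37 for Mt3 and oligodendrocyte genes, and with a pseudocount of 1 it was -0.0024 for Mt1 and Mt3. Genes at or above 0.4 with Mt1 numbered 27 in cells with at least 2000 genes and 130 in those with 500000 fragments, against 14. Over the same 8041 genes these shares were 0.336%, 1.79% and 0.174%, from 46, 39 and 59 cells. With Mt2 the number was 41 among genes detected in 30 cells, against 89, where fewer genes were ranked.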
